A study of Mus musculus with 16 samples.

Results

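Ethanol and acetaldehyde metabolism in mouse liver is described here through 9 genes, Adh1, Adh4, Adh5, Cyp2e1, Cat, Aldh2, Aldh1b1, Aldh1a1 and Aldh3a2. They were taken by symbol from a deposited table of 24082 genes, 1 row for each Ensembl identifier. All 9 passed the filter on low values (10 or more, as deposited, in 4 or more libraries), which left 12535 genes to test. The study fed female C57Bl6/J mice, aged 9 to 11 weeks, a Lieber-DeCarli liquid diet with or without ethanol, and gave both diets with or without iodomethylcholine (IMC), a small molecule that blocks the gut bacterial enzyme making trimethylamine from choline. The question for these genes was what the ethanol diet and the inhibitor each did to the liver transcripts that clear ethanol. The Pair group (n = 4) received the control diet, in which maltose dextrin replaced the ethanol calories, with vehicle. The Pair + IMC group (n = 4) received that diet with IMC at 0.06% wt/wt. The EtOH group (n = 4) received ethanol with vehicle, and the EtOH + IMC group (n = 4) received ethanol with the same amount of IMC. Ethanol rose in steps to 6% vol/vol (32% of calories) over 25 days, after 2 days of adaptation to control liquid diet. The drug and the ethanol were both in the food, and the study's records of food intake and body weight are not analysed here, so a difference in intake cannot be told apart from treatment in these livers, those of EtOH + IMC included. Each library is from the liver of 1 mouse.

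Alcohol dehydrogenases in the cytosol oxidise ethanol to acetaldehyde and pass the hydrogen to NAD. The cytochrome P450 encoded by Cyp2e1, in the endoplasmic reticulum of hepatocytes near the central vein, does the same with oxygen and NADPH, and catalase in peroxisomes can do it with hydrogen peroxide. Acetaldehyde, the reactive product, is oxidised to acetate mainly by the mitochondrial aldehyde dehydrogenase Aldh2, with other aldehyde dehydrogenases contributing. Alcohol raises Cyp2e1 protein largely by slowing its breakdown, so transcript and protein of that gene need not move together, and only transcripts were measured here.

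The libraries held 9632659 to 12601199 reads on genes. Of 8 hepatocyte markers, 7 were in the table and none of these was at 0. Their summed value was 1197027 to 1863947 in Pair and 1711870 to 1829191 in Pair + IMC. In EtOH it was 1103521 to 1200777, and in EtOH + IMC 1015597 to 1323995. The sums of Pair and EtOH overlapped. Most of each sum was Alb, with a mean of 1119193 in Pair and 859548 in EtOH. Alb did not pass the limma test for ethanol without IMC (adjusted p = 0.546) or under it (0.174). Of the 7, only Fgb passed in either comparison, lower without IMC (log2 -0.63, adjusted p = 0.029). The mean of Apob went the other way there, from 87086 in Pair to 114636 in EtOH. The part of these sums in the values of the 9 genes was not tested. Over all 16 libraries, 8 Kupffer cell and macrophage markers summed to 2401 to 7019.6 and 6 pancreas markers to 0.0 to 43.3. The values below are the deposited normalized read counts rescaled by 1 factor for each library so that all 16 libraries share 1 median-ratio scale; on the deposited scale the median gene was 0.19 higher (log2) in ethanol-fed than in pair-fed mice, and after rescaling the difference was -0.002. Within a group, values are given in the order of the library numbers, which are 10, 12, 14 and 16 for Pair, 2, 4, 6 and 8 for Pair + IMC, 1, 3, 5 and 7 for EtOH, and 9, 11, 13 and 15 for EtOH + IMC. Libraries 1 to 8 therefore hold Pair + IMC and EtOH, and libraries 9 to 16 hold Pair and EtOH + IMC. The labels do not call these runs of numbers batches. A shift between them cannot be told apart from an IMC effect within 1 diet or an ethanol effect without or under IMC. Nor can it be told apart from an IMC effect that differs between diets. A constant shift of a gene between the 2 runs of numbers drops out, on the log scale, of the ethanol effect averaged over vehicle and IMC and of the IMC effect averaged over diets, which are given beside the single comparisons. All ethanol-fed libraries have odd numbers and all pair-fed libraries even numbers. A shift between odd and even numbers therefore cannot be told apart from any ethanol effect, the averaged one included. Library 16 of Pair had the most genes over 1 log2 unit from its group's mean (591, against 219 to 413 in the other 15 libraries).

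The 250 bases before the RefSeq transcription start are shown for the genes that changed most in either direction and for catalase, which did not pass a test, so that readers can set the promoters beside the values (build GRCm38.p6). Entries matched 8 of the 9 genes. Capitals mark matches, on either strand, to the TATA box letters TATAAA, the CCAAT box, the HNF1 half-site letters GTTAAT, the C/EBP core letters TTGCNNAA and the GC box letters GGGCGG. For Aldh1a1 the second of 2 listed starts is shown, the Adh1 and Aldh1a1 windows lie inside the longer gene models used for coordinates below, and the Cyp2e1 and Cat windows overlap the starts of theirs.
Cyp2e1, chr7:140763569-140763818, plus strand: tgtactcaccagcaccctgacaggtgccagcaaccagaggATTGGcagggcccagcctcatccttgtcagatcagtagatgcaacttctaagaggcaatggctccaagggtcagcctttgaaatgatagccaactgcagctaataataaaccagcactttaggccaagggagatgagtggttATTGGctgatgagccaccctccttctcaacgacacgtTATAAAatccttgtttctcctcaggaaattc
Adh1, chr3:138277335-138277584, plus strand: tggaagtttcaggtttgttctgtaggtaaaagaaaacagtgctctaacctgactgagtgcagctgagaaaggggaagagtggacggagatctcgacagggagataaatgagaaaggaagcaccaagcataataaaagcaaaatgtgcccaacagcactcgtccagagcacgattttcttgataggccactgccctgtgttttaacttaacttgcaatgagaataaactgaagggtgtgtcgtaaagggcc
Aldh1a1, chr19:20601718-20601967, plus strand: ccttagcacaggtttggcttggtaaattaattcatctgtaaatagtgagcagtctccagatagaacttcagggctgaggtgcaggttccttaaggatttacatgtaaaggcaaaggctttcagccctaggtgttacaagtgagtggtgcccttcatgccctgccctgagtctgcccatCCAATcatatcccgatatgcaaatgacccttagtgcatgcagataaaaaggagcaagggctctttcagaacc
Aldh1b1, chr4:45798772-45799021, plus strand: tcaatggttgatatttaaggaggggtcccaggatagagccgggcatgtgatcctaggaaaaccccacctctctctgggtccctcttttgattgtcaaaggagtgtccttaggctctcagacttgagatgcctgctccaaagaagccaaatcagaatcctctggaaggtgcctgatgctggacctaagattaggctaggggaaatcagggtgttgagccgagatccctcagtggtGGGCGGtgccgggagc
Cat, chr2:103485154-103485403, minus strand: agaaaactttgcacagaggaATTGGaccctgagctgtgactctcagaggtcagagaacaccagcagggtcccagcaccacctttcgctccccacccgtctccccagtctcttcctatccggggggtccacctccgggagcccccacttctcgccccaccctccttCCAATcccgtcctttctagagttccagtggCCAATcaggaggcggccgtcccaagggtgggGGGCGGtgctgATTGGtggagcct
In the Cyp2e1 window a TATAAA stood 31 to 26 bases before the start, with CCAAT on the opposite strand at 68 to 64 and 210 to 206 bases. The catalase window held 4 CCAAT matches and 1 GGGCGG and no TATAAA. In Aldh1a1 there was 1 CCAAT (72 to 68 bases), in Aldh1b1 1 GGGCGG (16 to 11 bases), and in Adh1 none of the 5 motifs. Among 32851 promoter windows of this length, 12.4% held TATAAA, 33.8% CCAAT, 6.4% GTTAAT, 9.6% TTGCNNAA and 32.7% GGGCGG, so 3 of the 5 motifs are common and a match describes only the letters.

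The 3 alcohol dehydrogenases lie near each other on chromosome 3, on the plus strand of GRCm38, as the protein-coding genes Adh1 (chr3:138260991-138290698), Adh4 (chr3:138415466-138430892) and Adh5 (chr3:138443093-138455499). The other members are apart from them and from each other: Cyp2e1 (chr7:140763739-140774987), Cat (chr2:103453849-103485160, minus strand), Aldh2 (chr5:121566027-121593824, minus strand), Aldh1b1 (chr4:45799022-45804604), Aldh1a1 (chr19:20492715-20643465) and Aldh3a2 (chr11:61223417-61267464, minus strand). Reads could be confused with other genes only to a small extent: of the 100-base windows of Cyp2e1 transcripts, 26 of 2249 (1.16%) also occur in Fcho2, 1 of 4934 (0.02%) of Aldh1a1 occurs in Aldh1a7, and 7 members share none. Adh1 and Aldh2 overlap exons on the opposite strand, by 136 bases of Gm16559 and 130 bases of Gm42879. The library kit keeps strand, but whether counting used it is not given in the sources used here.

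Cyp2e1 had the highest transcript level of the 9 genes in every group when reads were divided by exon length, at 2867 ± 391 RPKM in Pair (SD, n = 4; RPKM is reads divided by the kilobases of exon and by the megareads of the library). Adh1 followed at 854 ± 90.1 and Cat at 833 ± 108, and these 2 overlapped. Aldh2 was at 386 ± 55.0, Aldh1a1 at 151 ± 38.4 and Aldh3a2 at 114 ± 20.7, of which the last 2 overlapped. Adh5, which encodes the class III enzyme that mainly clears formaldehyde bound to glutathione, stood at 71.1 ± 4.26. Aldh1b1 at 49.8 ± 6.06 and Adh4 at 45.7 ± 6.06 overlapped at the bottom of the order. By its mean over all 16 libraries, Cyp2e1 ranked 16 among all genes with an exon length, Adh1 41, Cat 50, Aldh2 121 and Adh4 947.

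In EtOH + IMC the order at the top was no longer clear. Cyp2e1 averaged 1278 ± 531 and Adh1 1174 ± 187 on this per-length scale, and Cyp2e1 was above Adh1 in 2 of the 4 libraries. Aldh1a1 (234 ± 31.2) came within the range of Aldh2 (309 ± 21.3) in the same group. In Pair + IMC the bottom of the order turned, with Adh4 (42.2 ± 5.29) above Aldh1b1 (31.7 ± 4.51) in 4 of 4 libraries although the ranges overlapped.

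**Figure D1:**
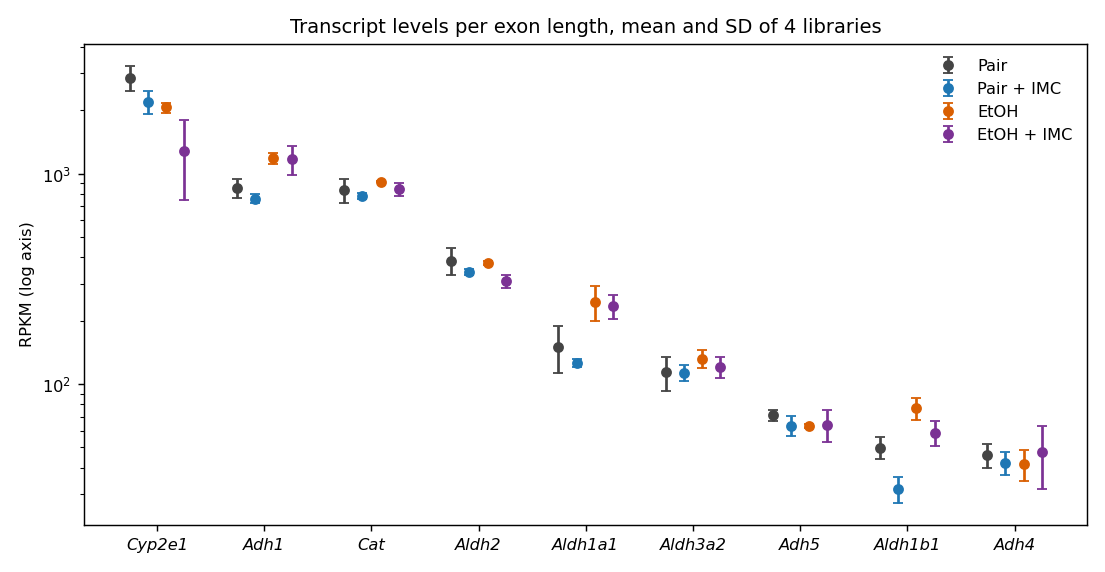
RPKM (log axis) for the 9 genes, ordered by their mean in Pair; points are means and bars SDs of 4 libraries for each of the 4 groups. Cyp2e1 falls from 2867 in Pair to 1278 in EtOH + IMC, where it meets Adh1 at 1174.

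Ethanol without IMC raised 3 of the 9 genes, Adh1, Aldh1a1 and Aldh1b1, and lowered none at an adjusted p under 0.05 (limma on log2(value + 1), Benjamini-Hochberg over all 12535 genes). At an unadjusted p under 0.05 1 fell, and with edgeR and DESeq2 on whole reads 0 were called lower. Among all genes tested, 6.33% rose and 5.52% fell in this comparison. The same 3 rose with ethanol under IMC, where Cyp2e1 fell, and there 7.88% of all genes rose and 8.61% fell. IMC raised 0 of the 9 in either diet with limma, also at an unadjusted p under 0.05, and 0 with edgeR and with DESeq2. In pair-fed mice it lowered 1, Aldh1b1, where 5.16% of all genes fell and 4.32% rose. In ethanol-fed mice it lowered 3, Cyp2e1, Aldh2 and Aldh1b1, where 11.1% of all genes fell and 10.4% rose. The 4 comparisons share groups in pairs, so they are given side by side and not as separate evidence. Averaged over vehicle and IMC, ethanol raised the same 3 genes and lowered Cyp2e1 (26.1% of all genes were called), and averaged over diets IMC lowered Cyp2e1, Aldh2 and Aldh1b1 and raised none (28.2%).

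The median log2 fold change of the 9 genes was 0.12 for ethanol without IMC, -0.05 for ethanol under IMC, -0.08 for IMC in pair-fed mice and -0.17 for IMC in ethanol-fed mice, against medians of all tested genes between -0.01 and 0.01. The groups did not overlap for 4 of the 9 genes in EtOH against Pair (19.0% of all genes), 3 in EtOH + IMC against Pair + IMC (19.2%), 1 in Pair + IMC against Pair (14.3%) and 2 in EtOH + IMC against EtOH (25.3%). The split of all called genes into higher and lower depends on the scale. For ethanol without IMC it was 794 higher and 692 lower after rescaling and 2801 and 199 as deposited. For ethanol under IMC it was 988 and 1079 after rescaling, 3183 and 441 as deposited and 2379 and 481 per total reads. Per total reads, IMC in pair-fed mice gave 250 higher and 1042 lower (542 and 647 after rescaling), and IMC in ethanol-fed mice gave 1600 and 1140 (1300 and 1393 after rescaling). In a liver sample, fewer cells of a type and less RNA per cell cannot be told apart.

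**Figure D2:**
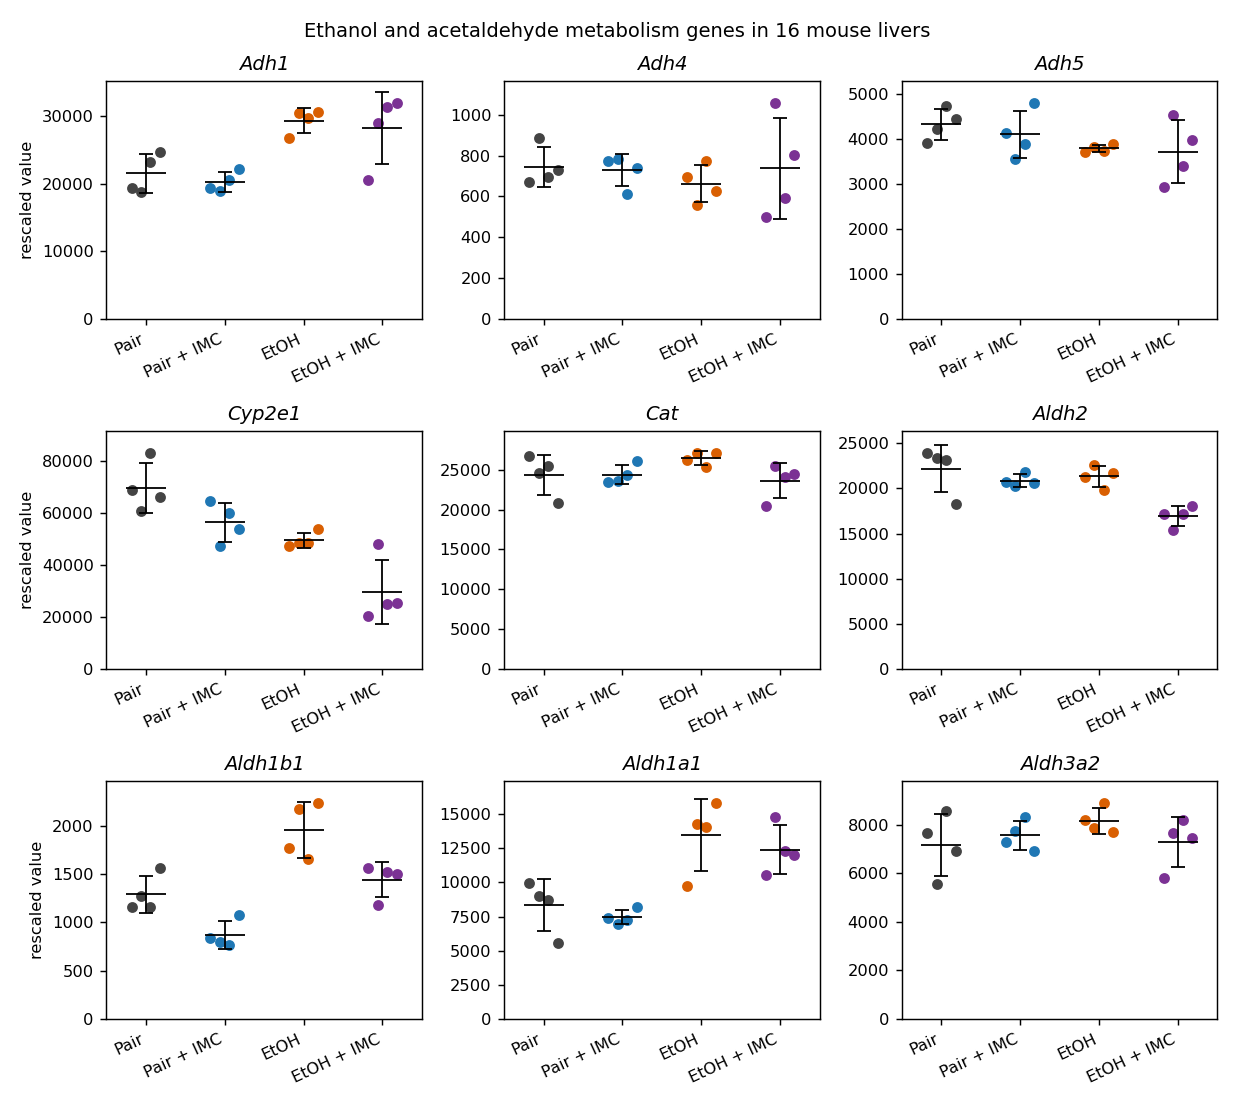
Rescaled value (axes from 0) of each gene in each of the 16 libraries; points are libraries, horizontal lines group means and bars SDs (n = 4). Aldh1b1 drops from Pair to Pair + IMC and from EtOH to EtOH + IMC, and 3 of 4 EtOH + IMC libraries lie at 20370.0 to 25157 for Cyp2e1.

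**Figure D3:**
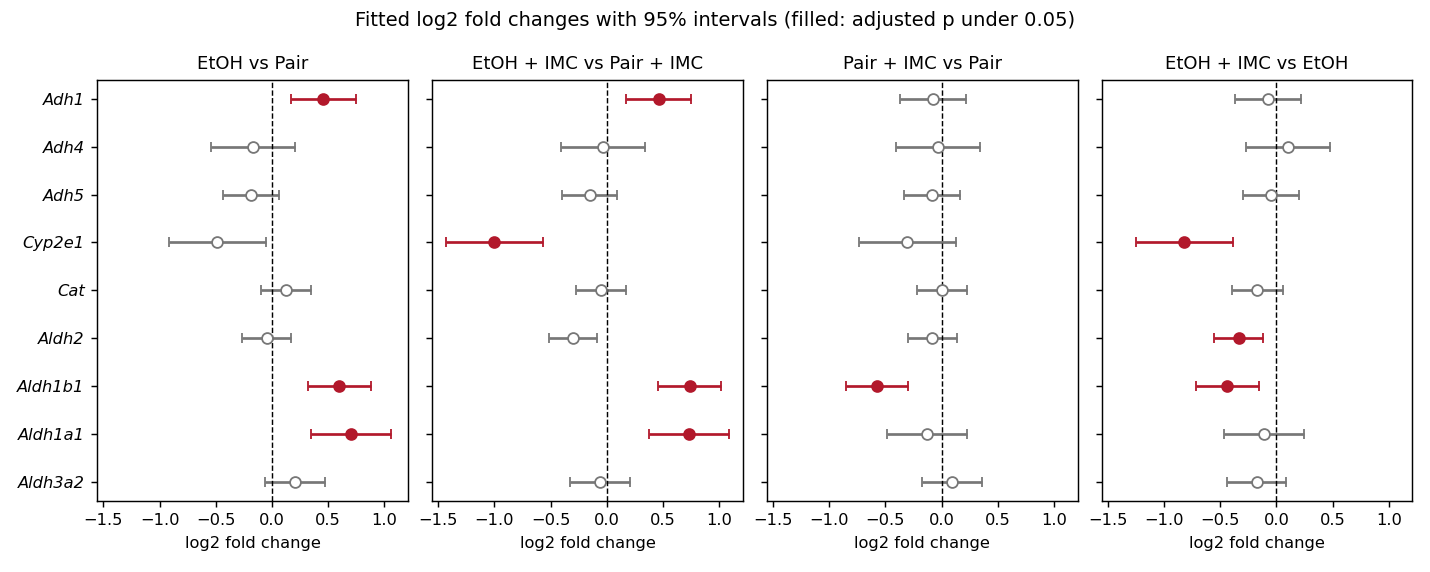
Fitted log2 fold changes of the 9 genes in the 4 comparisons with 95% intervals; filled red points have an adjusted p under 0.05 and open grey points do not. Adh1, Aldh1b1 and Aldh1a1 lie to the right of 0 in both ethanol comparisons, and every IMC interval of Adh1, Adh4, Adh5, Cat, Aldh1a1 and Aldh3a2 crosses 0.

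Adh1, which encodes the class I enzyme that carries most of the liver's ethanol oxidation, was higher with ethanol. Its rescaled values were 19377, 18801, 23211 and 24614 in Pair and 26693, 30452, 29648 and 30573 in EtOH. Every EtOH library was above every Pair library. The fold was 1.37 (95% interval 1.121 to 1.679; log2 0.46, SE 0.14, adjusted p = 0.04).

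Under IMC the values of Adh1 were 19389, 18859, 20584 and 22225 without ethanol and 20527, 29028, 31401 and 31991 with it. Library 9 of EtOH + IMC lay among the Pair + IMC libraries and the other 3 were above them. The log2 fold change was again 0.46 (SE 0.14, adjusted p = 0.0306). Without library 9 it was 0.61 (adjusted p = 0.00405), and the call was lost without library 11 (0.44, adjusted p = 0.0537). Leaving out 1 library at a time kept the call in 8 of 16 fits without IMC (adjusted p 0.0143 to 0.0987) and in 10 of 16 under IMC (0.00405 to 0.0957). Averaged over vehicle and IMC, the rise of 0.46 (SE 0.10, adjusted p = 0.00259) was called in 16 of 16 such fits.

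IMC had no called effect on Adh1. The log2 fold change was -0.08 in pair-fed mice (95% interval -0.37 to 0.21, adjusted p = 0.767) and -0.07 in ethanol-fed mice (-0.37 to 0.22, adjusted p = 0.737).

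Adh4, the class II enzyme that works at higher ethanol concentrations and also on retinol, had values of 669, 886, 696 and 731 in Pair and 774, 785, 614 and 742 in Pair + IMC. In EtOH they were 696, 559, 772 and 626, and in EtOH + IMC 498, 1061, 592 and 801. The groups overlapped throughout, and library 11 of EtOH + IMC was the highest of the 16. No comparison passed the test: the log2 fold changes ran from -0.17 for ethanol without IMC (95% interval -0.54 to 0.20, adjusted p = 0.564) to 0.10 for IMC in ethanol-fed mice (-0.27 to 0.47, adjusted p = 0.713).

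Adh5 had values of 3909, 4229, 4731 and 4442 in Pair and 3705, 3816, 3727 and 3892 in EtOH. The EtOH libraries had a coefficient of variation of 2.3% and lay just below the lowest Pair library. The difference did not pass the test (log2 -0.19, SE 0.12, 95% interval -0.44 to 0.06, adjusted p = 0.307). With IMC the values were 4141, 3549, 3895 and 4805 in pair-fed and 2925, 4541, 3396 and 3980 in ethanol-fed mice, which overlapped (log2 -0.15, adjusted p = 0.4). IMC gave -0.08 (adjusted p = 0.696) in pair-fed and -0.05 (adjusted p = 0.805) in ethanol-fed mice.

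Of the other alcohol dehydrogenases, Adh6a and Adh7 were in the table and Adh7, the class IV enzyme best known from the stomach, was tested. It fell with ethanol by 0.42 on the log2 scale without IMC (adjusted p = 0.0421) and by 0.46 under IMC (adjusted p = 0.0206), and with IMC by 0.305 averaged over diets (adjusted p = 0.0184). In each diet alone the IMC effect on it was not called.

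Cyp2e1 was lowest when ethanol and IMC were given together. The rescaled values were 68639, 60643, 83098 and 65986 in Pair, 64541, 47327, 59744 and 53833 in Pair + IMC, and 47082, 48426, 48368 and 53610 in EtOH. In EtOH + IMC they were 20370.0, 47906, 25017 and 25157. Of these, 3 libraries were below every library of the other groups, and library 11 stood with the EtOH libraries.

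IMC lowered Cyp2e1 in ethanol-fed mice to 0.57 of its EtOH level (95% interval 0.42 to 0.76; log2 -0.82, SE 0.20, adjusted p = 0.00895). Without library 11 the log2 fold change was -1.08 (adjusted p = 0.000165), and the call held in 16 of 16 fits that left out 1 library and in all 14 other settings. In pair-fed mice the IMC effect was -0.30 and did not pass (SE 0.20, 95% interval -0.73 to 0.13, adjusted p = 0.377). The difference between the diets in the IMC effect was -0.51 and was not called (SE 0.29, 95% interval -1.12 to 0.09, adjusted p = 0.411; 1.11% of all genes were called in that test). A larger IMC effect in ethanol-fed than in pair-fed mice was therefore not shown for this gene, and without library 11 the difference was -0.77 (adjusted p = 0.0742).

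With ethanol, Cyp2e1 fell under IMC to 0.50 of its Pair + IMC level (95% interval 0.37 to 0.67; log2 -1.0, SE 0.20, adjusted p = 0.00341). Without IMC every EtOH library was below every Pair library, but the fall of the means, from 69592 ± 9599 to 49371 ± 2893, did not pass the test (log2 -0.49, SE 0.20, 95% interval -0.92 to -0.06, adjusted p = 0.127). This changed with library 11 of EtOH + IMC, which is in neither group but adds to the shared spread: without it the adjusted p was 0.0293 at the same log2 fold change. Averaged over vehicle and IMC, ethanol lowered the gene by 0.74 (SE 0.14, adjusted p = 0.00129), and averaged over diets IMC lowered it by 0.56 (SE 0.14, adjusted p = 0.00791).

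Library 11 was at an end of its group's range in genes other than Cyp2e1 too. Of the 9 genes it held the highest value of its group in 5 (Adh4, Adh5, Aldh1a1, Cat and Cyp2e1) and the lowest in 2 (Aldh2 and Aldh1b1). Library 9 of the same group held the lowest value in 7 of the 9. Such counts were not particular to this group. Library 7 of EtOH was highest in 6 of the 9 and library 8 of Pair + IMC in 5. Library 4 of Pair + IMC was lowest in 5. The cause of these patterns was not tested.

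Beside Cyp2e1, 9 genes for partners of microsomal ethanol oxidation were listed, among them the P450 reductase Por and the haem synthesis enzyme Alas1. Of these, 3 rose with ethanol without IMC and none fell, and 3 rose and 1 fell under IMC. Alas1 rose by 1.08 (adjusted p = 0.0243) without IMC. Cyp1a2, a P450 that also oxidises ethanol at a low rate, rose by 2.05 under IMC (adjusted p = 0.00083), and the cytochrome b5 reductase Cyb5r3 fell by 0.45 (adjusted p = 0.0104). In pair-fed mice limma called 0 of the 9 for IMC (4 at an unadjusted p under 0.05), edgeR 0 and DESeq2 2. In ethanol-fed mice IMC raised Pgrmc1 (0.25, adjusted p = 0.0434) and lowered Cyp3a11 (-0.64, adjusted p = 0.00521). All values in this paragraph are log2 fold changes.

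Cyp2e1 is expressed in pericentral hepatocytes, so 17 other pericentral and 14 periportal markers were read beside it. For IMC in ethanol-fed mice 1 pericentral marker was higher (Cyp2a5, log2 1.35, adjusted p = 0.0141) and 3 were lower, led by Oat (-1.17, adjusted p = 0.00256), with a median of -0.21. In the same comparison 3 periportal markers were higher and 1 was lower, Cyp2f2 (-1.39, adjusted p = 2.52e-06). For ethanol under IMC 4 pericentral markers were higher, led by Cyp1a2 (2.05, adjusted p = 0.00083), and 2 lower, led by Glul (-0.58, adjusted p = 0.000599), and 4 periportal markers were higher and 1 lower. Ethanol without IMC raised 1 pericentral (Rhbg, 1.19, adjusted p = 0.00438) and 2 periportal markers, and IMC in pair-fed mice lowered 3 pericentral markers and raised 1 periportal marker. The mean log2 value of the pericentral list in EtOH + IMC was 9.67, 9.55, 9.65 and 9.44, of which 9.55 is library 11, with the highest Cyp2e1. It was 9.69, 9.66, 9.73 and 9.43 in Pair and 9.32, 9.34, 9.36 and 9.46 in Pair + IMC. In EtOH it was 9.40, 9.87, 9.81 and 9.96. The mean of the periportal list was 12.381 to 12.558 in Pair and 12.45 to 12.651 in Pair + IMC. It was 12.476 to 12.805 in EtOH and 12.756 to 12.844 in EtOH + IMC, where every library was above every pair-fed library. The part of zonal markers in the Cyp2e1 values was not tested.

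Catalase, the peroxisomal enzyme that removes hydrogen peroxide and can use it to oxidise ethanol, passed the test in none of the 4 comparisons with limma on the common scale. Its values were 26754, 24594, 25440.3 and 20896 in Pair and 23468, 23666, 24304 and 26095 in Pair + IMC. With ethanol they were 26244, 27145, 25349.6 and 27155 without IMC and 20447, 25461, 24155 and 24483 with it. The groups overlapped in all 4 comparisons. The largest of the 4 log2 fold changes in size was -0.17, for IMC in ethanol-fed mice (95% interval -0.39 to 0.05, adjusted p = 0.273), and ethanol without IMC gave 0.12 (-0.10 to 0.34, adjusted p = 0.483). Only on the deposited scale, where the median gene was higher with ethanol, was the second of these called (0.31, adjusted p = 0.0399).

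Around catalase, 10 enzymes that make hydrogen peroxide, most of them peroxisomal, were listed, of which 9 were tested. Ethanol raised 2 and lowered 2 without IMC and raised 1 and lowered 2 under IMC. Hao2 was among the rises without IMC (0.56, adjusted p = 0.035) and among the falls under IMC (-0.50, adjusted p = 0.0477). The bile acid oxidase Acox2 rose in both (0.62, adjusted p = 0.00251 without IMC and 0.62, adjusted p = 0.00163 under it). IMC lowered 2 in pair-fed mice, of which the polyamine oxidase Paox fell most (-1.10, adjusted p = 0.000171), and 3 in ethanol-fed mice, of which the hydroxyacid oxidase Hao2 fell most (-2.09, adjusted p = 1.67e-06). The IMC effect on Hao2 differed between the diets by -1.06 (adjusted p = 0.0385). Of 14 genes for peroxisome import and division, ethanol lowered 4 with and 4 without IMC and raised none. Pex11a, a peroxisome division gene, fell by 0.75 without IMC (adjusted p = 0.000974) and by 0.59 under IMC (adjusted p = 0.00255), and IMC raised it by 0.48 in ethanol-fed mice (adjusted p = 0.00746). Of 15 other genes that remove hydrogen peroxide and superoxide, limma called 0 for ethanol without IMC (4 at an unadjusted p under 0.05), edgeR 0 and DESeq2 1. Under IMC ethanol raised 2 and lowered 2, with the mitochondrial peroxiredoxin Prdx3 at -0.38 (adjusted p = 0.0141). IMC raised 2 and lowered 1 in pair-fed mice, the glutathione peroxidase Gpx1 (-0.45, adjusted p = 0.0426), and raised 3 and lowered 3 in ethanol-fed mice, with the peroxiredoxin Prdx6 at -0.37 (adjusted p = 0.016). Glutathione reductase, Gsr, rose with IMC in both diets (0.46, adjusted p = 0.00426 in pair-fed and 0.78, adjusted p = 2.25e-05 in ethanol-fed mice).

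Aldh2, the main mitochondrial acetaldehyde dehydrogenase, was lower with IMC in ethanol-fed mice. Its values were 21241, 22648, 19853 and 21748 in EtOH and 17185, 15362, 17215 and 18060.5 in EtOH + IMC. Every EtOH + IMC library was below every EtOH library. The level was 0.79 of that in EtOH (95% interval 0.68 to 0.92; log2 -0.33, SE 0.10, adjusted p = 0.0273). The call was kept in 11 of 16 fits without 1 library (adjusted p 0.0135 to 0.0742); it was lost, among others, without library 3 of EtOH (0.0742) and without library 11 of EtOH + IMC (0.0735). It was also lost with no filter on low values (adjusted p = 0.0714) and per total reads (-0.29, adjusted p = 0.0529).

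The same group was below Pair + IMC, where Aldh2 was at 20751, 20235, 21867 and 20618. These groups did not overlap either, and the ethanol effect under IMC was -0.30 (SE 0.10, 95% interval -0.52 to -0.09) with an adjusted p of 0.0528. It was called in 6 of 14 other settings, among them edgeR (adjusted p = 0.0453) and DESeq2 (0.00539) on whole reads. In Pair the values were 23957, 23354, 23154 and 18329.5, the last of which is library 16. Neither ethanol without IMC (-0.05, 95% interval -0.26 to 0.17, adjusted p = 0.796) nor IMC in pair-fed mice (-0.08, -0.30 to 0.13, adjusted p = 0.661) was called. Averaged over diets, the IMC effect was -0.21 (SE 0.07, adjusted p = 0.0399), called in 4 of 16 fits without 1 library and in 11 of 13 other settings (adjusted p = 0.0975 with no filter and 0.0616 with quantile normalization). The IMC effect did not differ detectably between diets (-0.25, 95% interval -0.56 to 0.05, adjusted p = 0.422).

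Aldh1b1, another mitochondrial aldehyde dehydrogenase that also takes acetaldehyde, moved with both factors. Its values were 1161, 1273, 1163 and 1564 in Pair and 834, 793, 770.0 and 1076.5 in Pair + IMC. They were 1766, 2172, 1655 and 2235 in EtOH and 1566, 1179.9, 1522 and 1503 in EtOH + IMC. In each of the 4 comparisons the groups did not overlap, which held for no other member. The comparisons share groups, and the share of all genes without overlap in all 4 is not given here.

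Ethanol raised Aldh1b1 1.51-fold without IMC (95% interval 1.25 to 1.84; log2 0.60, SE 0.13, adjusted p = 0.00831) and 1.67-fold under IMC (1.37 to 2.02; log2 0.74, SE 0.13, adjusted p = 0.00147). Both calls held in 16 of 16 fits without 1 library and in all 14 other settings. IMC lowered it to 0.67 in pair-fed mice (95% interval 0.55 to 0.81; log2 -0.57, SE 0.13, adjusted p = 0.013) and to 0.74 in ethanol-fed mice (0.61 to 0.90; log2 -0.44, SE 0.13, adjusted p = 0.0258). The first was lost in 1 of 16 fits, without library 6 of Pair + IMC (adjusted p = 0.0502), and the second in 3, among them without library 11 (-0.34, adjusted p = 0.0858) and without library 3 of EtOH (-0.38, adjusted p = 0.077).

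The IMC effects on Aldh1b1 in the 2 diets differed by 0.14 (SE 0.19, 95% interval -0.26 to 0.53, adjusted p = 0.782), an interval that leaves room for a difference of either sign. Averaged, ethanol raised the gene by 0.67 (SE 0.09, adjusted p = 9.57e-05) and IMC lowered it by 0.50 (SE 0.09, adjusted p = 0.000771), and the mean in EtOH + IMC (1443 ± 177) was within the range of neither EtOH (1655 to 2235) nor Pair + IMC (770.0 to 1076.5) but within that of Pair (1161 to 1564).

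Aldh1a1, a cytosolic enzyme known for oxidising retinal to retinoic acid that also takes acetaldehyde, was higher with ethanol. Its values were 9983, 9006.5, 8733 and 5563 in Pair and 9720.3, 14259, 14045 and 15817 in EtOH. In EtOH, 3 libraries were above all Pair libraries, and library 1 of EtOH was within the Pair range. The rise was 1.63-fold (95% interval 1.27 to 2.09; log2 0.70, SE 0.17, adjusted p = 0.0131).

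Under IMC, Aldh1a1 was at 7366, 6939.5, 7281 and 8163.5 without ethanol and at 10537, 14803, 12278 and 11980.1 with it. These groups did not overlap, and the rise was 1.66-fold (95% interval 1.29 to 2.12; log2 0.73, SE 0.17, adjusted p = 0.00798). Both calls held in 16 of 16 fits without 1 library, with adjusted p values up to 0.0453, and in all 14 other settings. IMC gave -0.13 in pair-fed mice (95% interval -0.49 to 0.22, adjusted p = 0.671) and -0.11 in ethanol-fed mice (-0.46 to 0.25, adjusted p = 0.692).

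The library with the lowest Aldh1a1 had the lowest mean of the pericentral markers in Pair (library 16) and EtOH (library 1) and not in the other 2 groups. That mean log2 value was 9.43 in library 16, against 9.66 to 9.73 in the other Pair libraries, and 9.40 in library 1, against 9.81 to 9.96 in the other EtOH libraries. In EtOH + IMC the library with the lowest Aldh1a1, library 9, had the highest pericentral mean (9.67), and in Pair + IMC Aldh1a1 was lowest in library 4 and the pericentral mean in library 2 (9.32). Without library 16 the ethanol effect was 0.52 (adjusted p = 0.0315). The part of these markers in the values was not tested.

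Aldh3a2, a microsomal enzyme that oxidises long-chain fatty aldehydes, had no called change. Its values were 7661, 5545, 8583.5 and 6906 in Pair, 7309, 7737, 8328 and 6909.7 in Pair + IMC, 8208, 7866, 8906 and 7712 in EtOH and 5812, 7655, 8195 and 7478 in EtOH + IMC. The groups overlapped in all 4 comparisons. The log2 fold changes lay between -0.18 for IMC in ethanol-fed mice (95% interval -0.44 to 0.09, adjusted p = 0.342) and 0.20 for ethanol without IMC (-0.06 to 0.47, adjusted p = 0.306), the second of which was called only on the deposited scale (0.39, adjusted p = 0.0308).

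Of 17 other aldehyde dehydrogenases, 13 were tested. Ethanol raised 2 and lowered 1 without IMC, and raised 1 and lowered 3 under IMC. IMC raised 1 and lowered 2 in pair-fed mice, and raised 1 and lowered 7 in ethanol-fed mice, where the list's median log2 fold change was -0.27. Aldh3b1 rose with ethanol by 1.06 (adjusted p = 0.0335) without and by 1.07 (adjusted p = 0.0243) under IMC. Aldh3b3 fell with ethanol, by 1.27 (adjusted p = 0.0424) and by 2.20 (adjusted p = 0.0013). In pair-fed mice IMC raised Aldh1l2, a mitochondrial folate enzyme, by 1.87 (adjusted p = 0.00688) and lowered Aldh4a1, of proline breakdown (-0.575, adjusted p = 0.00443). Aldh1l2 was low, at a mean rescaled value of 5.6 in Pair and 23.9 in Pair + IMC. Its mean in Pair was under the filter value of 10, and it passed the filter through other groups. In ethanol-fed mice the single rise was again Aldh3b1 (0.97, adjusted p = 0.0325), and the deepest of the 7 falls was Aldh3b3 (-1.31, adjusted p = 0.0235).

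Ratios within a library, taken on the per-length scale, do not depend on the scale chosen between libraries. Adh1 over Cyp2e1 was 0.270 to 0.360 in Pair, 0.290 to 0.399 in Pair + IMC, 0.548 to 0.608 in EtOH and 0.586 to 1.23 in EtOH + IMC. All 8 ethanol-fed livers were above all 8 pair-fed livers, and within EtOH + IMC library 11 was the lowest. Aldh2 over Adh1, the transcript for acetaldehyde removal against that for its formation, ran from 0.324 to 0.541 in Pair, 0.404 to 0.467 in Pair + IMC, 0.292 to 0.347 in EtOH and 0.231 to 0.365 in EtOH + IMC. Pair overlapped both ethanol groups through library 16, its lowest, and Pair + IMC overlapped neither. Aldh1a1 over Aldh2 was 0.315 to 0.433 in Pair and 0.346 to 0.411 in Pair + IMC, against 0.475 to 0.755 in EtOH and 0.637 to 1.001 in EtOH + IMC, and here too every ethanol-fed liver was above every pair-fed liver. Aldh1b1 over Aldh2 was lowest in Pair + IMC, at 0.0785 to 0.1165, and stood at 0.171 to 0.203 in EtOH + IMC and 0.185 to 0.229 in EtOH. In Pair it was 0.108 to 0.190, and library 16 overlapped the ethanol-fed livers. The ratios are a description and were not tested.

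**Figure D4:**
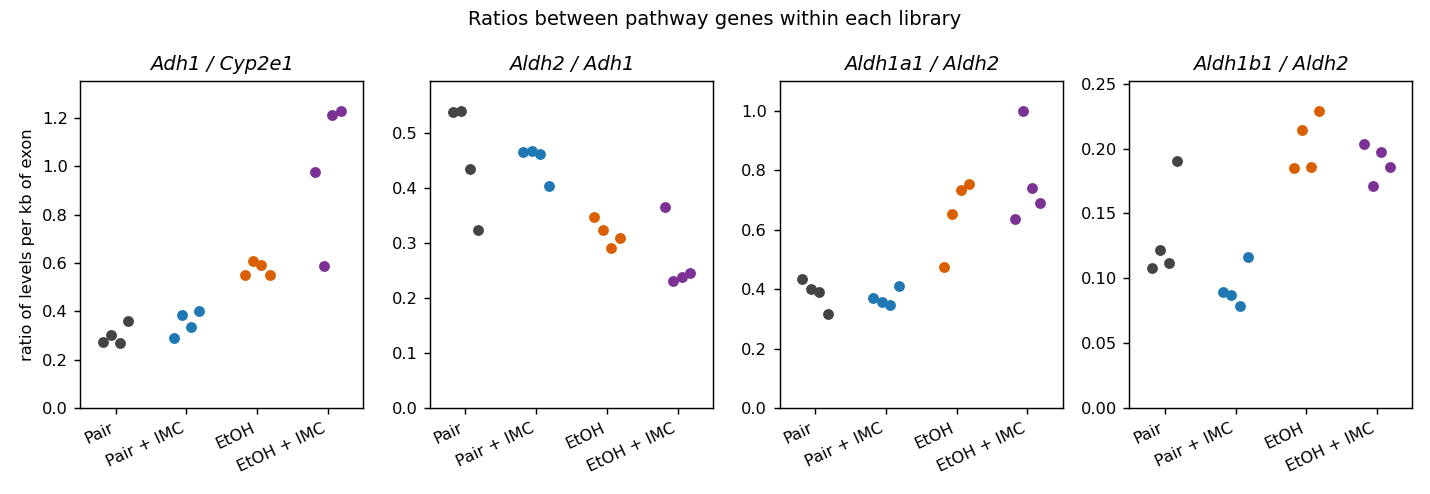
Ratio of levels per kb of exon between pairs of genes within each of the 16 libraries (points, axes from 0), by group. Adh1 over Cyp2e1 and Aldh1a1 over Aldh2 are higher in all 8 ethanol-fed than in all 8 pair-fed livers, and Adh1 over Cyp2e1 reaches 1.23 in EtOH + IMC.

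Acetate leaving this pathway is activated to acetyl-CoA, and of 4 genes listed for that step and its reversal 1 rose with ethanol without IMC, the mitochondrial synthetase Acss3 (log2 0.83, adjusted p = 0.00466). Under IMC ethanol lowered 2, of which the cytosolic synthetase Acss2 fell by 2.02 (adjusted p = 0.000679). In pair-fed mice limma, edgeR and DESeq2 each called 0 of the 4 for IMC (1 at an unadjusted p under 0.05 with limma). IMC lowered 2 in ethanol-fed mice, with Acss2 at -1.38 (adjusted p = 0.00664). The IMC effect on Acss3 differed between diets by -1.02 (adjusted p = 0.0469).

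Ethanol oxidation loads the cell with NADH, which shuttles carry into mitochondria. Of 14 shuttle and lactate dehydrogenase genes, ethanol raised 1 and lowered none without IMC and raised 1 and lowered 3 under IMC, where the mitochondrial glycerol phosphate dehydrogenase Gpd2 fell by 0.62 (adjusted p = 0.000993). IMC raised 2 and lowered 1 in pair-fed mice, with the cytosolic partner Gpd1 at 1.03 (adjusted p = 0.00296). It raised none and lowered 3 in ethanol-fed mice, with the aspartate and glutamate carrier Slc25a13 at -0.45 (adjusted p = 0.000595).

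Adh5 works with glutathione and folate enzymes on formaldehyde. Of 7 such genes, limma, edgeR and DESeq2 each called 0 for ethanol without IMC (0 at an unadjusted p under 0.05), and 1, the formylglutathione hydrolase Esd, rose under IMC (0.305, adjusted p = 0.0297). IMC raised 2 and lowered 1 in pair-fed mice and raised 3 and lowered 2 in ethanol-fed mice. Gclc, the catalytic subunit of the first enzyme of glutathione synthesis, rose in both, by 0.91 (adjusted p = 0.00498) and by 1.20 (adjusted p = 0.000244).

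Of 13 genes of retinol and retinal metabolism, which shares enzymes with ethanol oxidation, ethanol raised 2 and lowered none without IMC and raised 3 and lowered 2 under IMC. Cyp26b1, which breaks down retinoic acid, rose most in both (log2 2.33, adjusted p = 0.00183, and 3.54, adjusted p = 3.31e-05). The retinol dehydrogenase Rdh16 fell by 1.23 with ethanol under IMC (adjusted p = 0.00012) and by 0.67 with IMC in ethanol-fed mice (adjusted p = 0.00637), and its IMC effect differed between diets by -1.10 (adjusted p = 0.0265). Lrat, the retinol-storing enzyme that marks stellate cells, rose with ethanol by 1.16 (adjusted p = 0.00201) and by 1.25 under IMC (adjusted p = 0.000679). Of the 7 stellate cell markers, ethanol raised 2 and lowered 0 without IMC and raised 2 and lowered 1 under IMC, where Reln fell by 0.85 (adjusted p = 0.00276). IMC lowered 2 of them in ethanol-fed mice, with Reln at -1.26 (adjusted p = 8.62e-05). The summed value of the list was 3028 to 4329 in Pair, 3085 to 3904 in Pair + IMC, 4378 to 5325 in EtOH and 2925 to 3908 in EtOH + IMC, and its part in these values was not tested.

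Among 19 genes for transcription factors named for these enzymes, ethanol lowered 2 and raised none without IMC, with the fatty acid receptor Ppara at -0.48 (adjusted p = 0.0378). Under IMC it raised 3 and lowered 3, with Onecut1 at 1.23 (adjusted p = 0.0194) and the xenobiotic receptor Nr1i3 at -0.66 (adjusted p = 0.0106). IMC raised 1 and lowered 2 in pair-fed mice, where Srebf1, a regulator of lipid synthesis genes, fell by 0.79 (adjusted p = 0.000819), and raised 2 and lowered 2 in ethanol-fed mice, where Hlf fell by 0.59 (adjusted p = 0.0187). Hnf4a, a hepatocyte regulator, rose with IMC by 0.71 in pair-fed (adjusted p = 0.00322) and by 0.62 in ethanol-fed mice (adjusted p = 0.00298).

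Markers of other cells moved beside some results. All 4 tested red cell markers were lower with ethanol under IMC (Hba-a1, log2 -2.40, adjusted p = 0.00227) and 2 of 4 with IMC in ethanol-fed mice. The summed red cell value was 51.1 to 135 in EtOH + IMC, against 131 to 372 in EtOH and 219 to 395 in Pair + IMC. IMC in pair-fed mice lowered 1 of 5 tested bile duct markers, Krt7 (-1.52, adjusted p = 0.0385), and the 1 tested pancreas marker, Ctrb1 (-3.56, adjusted p = 0.0265), whose values were 4.1 to 43.3 in Pair and 0.0 to 1.0 in Pair + IMC. IMC in ethanol-fed mice lowered 1 of 2 tested intestine markers, Fabp2 (-1.40, adjusted p = 0.0121), whose values were 913.7 to 1029.8 in EtOH and 187.2 to 1257.4 in EtOH + IMC. The other, Vil1, was not called (0.12, adjusted p = 0.92) and was far lower, at a mean of 6.9 in EtOH and 5.5 in EtOH + IMC. The fall of Fabp2 alone does not show a change in intestinal material. Kupffer cell and macrophage markers had no call in any of the 4 comparisons (0 of 8 with limma, edgeR and DESeq2, and 0 to 1 at an unadjusted p under 0.05 with limma). The part of these markers in the values of the 9 genes was not tested.

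The patterns most like those of the members over the 16 libraries were described by the Pearson correlation of log2 values. Cyp2e1 ran closest to Cyp2c39 (r = 0.943), Fads1 (0.940) and Ttc23 (0.937). Aldh1b1 ran closest to Dcaf11 (0.971), Sdc1 (0.970) and Ankrd24 (0.943). For Adh1 the nearest were Cd151 (0.908), Cct7 (0.906) and Pfkl (0.905), for Aldh1a1 Ces2c (0.928), Gsta3 (0.904) and Cyp2c50 (0.903), and for Aldh2 Ddah1 (0.903), Pigr (0.901) and Raet1d (0.880). The nearest gene to Adh5 was Psma5 (0.942), to Cat Pygl (0.849), to Aldh3a2 Acaa1b (0.831) and to Adh4 Ctdnep1 (0.787). These points share libraries, groups and scale, and each was picked from 12535 genes. With group means removed, r was 0.767, 0.761 and 0.883 for the 3 genes named with Cyp2e1. Among all genes named here it then ran from 0.606 (Raet1d with Aldh2) to 0.938 (Psma5 with Adh5).

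Between members, the 3 genes raised by ethanol correlated over the 16 libraries (Adh1 with Aldh1b1, r = 0.715; Adh1 with Aldh1a1, 0.713; Aldh1a1 with Aldh1b1, 0.638), but not once group means were removed (0.232, 0.081 and -0.227). Adh5 and Cyp2e1 were alike both ways (0.707 over all 16 libraries and 0.730 within groups), as were Adh4 and Adh5 (0.614 and 0.633). Adh1, near both on chromosome 3, gave -0.03 with Adh4 and -0.027 with Adh5 over all libraries (0.249 and 0.677 within groups). In EtOH + IMC, Adh4, Adh5 and Cyp2e1 were each highest in library 11 and lowest in library 9. The pairs named here were picked from all pairs of the 9 genes. Aldh1a1 and Cat were more alike within groups (0.765) than over all libraries (0.522).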

How the data were processed

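Liver RNA-seq from 16 mice was analysed (4 groups of 4, grouped by the labels' diet and treatment). Per the labels and the study's methods, libraries were made with a stranded TruSeq kit for 100-base reads (the labels say paired-end, the methods single-end), trimmed with Trim Galore, checked with FastQC, aligned with STAR to mm10 and normalized with edgeR. The counting tool is not given in the sources used here. The authors deposited a signal: normalized read counts, which are whole reads times 1 factor for each library (0.906 to 1.18 a read; 100.0% of values within 0.01 of a whole read). The factors of the 2 diets were on different scales, so all 16 columns were rescaled by median ratios.

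Genes at 10 or more in at least 4 libraries were tested on log2(value + 1), so that folds of low genes are understated, with limma 3.58.1 in R 4.3.3 (group means, mean-variance trend, 16 libraries sharing 1 spread, two-sided, Benjamini-Hochberg, threshold 0.05). edgeR 4.0.16 and DESeq2 1.42.0 on the recovered reads were alternatives, also without library 15, where 1 read is worth 1.01 (chosen after seeing the data). The limma fit was run on simulated data, with genes changed in EtOH + IMC by more than any effect called for the 9 genes. That run does not show how well effects of the size seen here are found. The p-values measure the spread between these mice. The 9 genes and all gene lists were chosen with earlier results of these data known. The genes named from a list are among those called that rose most or fell most in a comparison; not every such gene is named, some lists exceed the 3 names first planned, and no list was tested as a set. Positions are from GENCODE vM21 on GRCm38 and promoters from RefSeq. At these depths the member with the fewest reads had 520 or more in each library, so counting error is small beside the spread between mice.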

Additional observations from a re-analysis of the deposited data

Results flagged for a closer look

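Of 36 groups of 4 libraries tested (9 genes in 4 groups), 2 held a library far from the other 3 by Dixon's criterion (the gap to the nearest library over the group's range, against its 95% critical value), and chance flags about 1 in 20 groups. Aldh2 in library 16 of Pair was at 18329.5, below the other 3 libraries by 0.857 of the range. Aldh1b1 in library 11 of EtOH + IMC was at 1179.9, below the other 3 by 0.836 of the range. Cyp2e1 in library 11 of EtOH + IMC, at 47906, had a gap of 0.826 of the range and was not past the criterion.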

How the results depend on the processing

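No paired analysis was possible because no library number occurs in more than 1 group. The comparisons were repeated with pseudocounts of 0.1 and 5, with no filter on low values, with a mean of at least 100, on the values as deposited, with quantile normalization, per total reads, by the upper quartile, without the mean-variance trend, on the libraries of the comparison alone, and with edgeR and DESeq2 on whole reads, the last 2 also without library 15 (added after seeing the data). Over these settings 806 log2 fold changes of the 9 genes kept their direction and their side of the threshold, 13 gained and 8 lost a call, and 28 changed sign. None of the changes of sign was in an effect called in the main test. The ethanol rises of Aldh1a1 and Aldh1b1, the IMC falls of Aldh1b1 and the falls of Cyp2e1 in EtOH + IMC kept their calls in all of them. The 8 lost calls were of Adh1 and Aldh2. Adh1 lost its call with no filter (adjusted p = 0.0865 without and 0.0688 under IMC) and, under IMC, on the libraries of the comparison alone (0.0677) and with edgeR without library 15 (0.0561). Aldh2 lost that for IMC in ethanol-fed mice with no filter (0.0714) and per total reads (0.0529), and that averaged over diets with no filter (0.0975) and quantile normalization (0.0616). The cause was not tested where none is given here.

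On the deposited values, whose scale differs between diets, ethanol called 3000 genes and 5 of the 9 without IMC, 3624 genes under IMC and 5222 averaged. There the ethanol effect turned to 0.02 for Adh4 and 0.142 for Aldh2 without IMC, to 0.156 for Adh4, 0.038 for Adh5, 0.128 for Aldh3a2 and 0.144 for Cat under IMC, and to 0.088 for Adh4, 0.019 for Adh5 and 0.016 for Aldh2 averaged. Per total reads, ethanol under IMC turned to 0.117 for Adh4, 0.088 for Aldh3a2 and 0.104 for Cat, and IMC in pair-fed mice to -0.081 for Cat. With quantile normalization, ethanol turned to 0.001 for Adh4 under IMC and to -0.04 for Cat averaged, and IMC to -0.037 for Cat in pair-fed mice, 0.046 for Adh5 in ethanol-fed mice and 0.055 for Aldh3a2 averaged. Ethanol under IMC gave 0.026 (edgeR) and 0.018 (DESeq2) for Adh4. IMC in pair-fed mice gave -0.014 (upper quartile), -0.011 (edgeR), -0.004 (DESeq2), and without library 15 -0.005 (edgeR) and -0.006 (DESeq2) for Cat. The difference between diets in the IMC effect on Adh1 turned to -0.013 (upper quartile), and without library 15 to -0.028 (edgeR) and -0.033 (DESeq2).

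Over all genes, edgeR without library 15 called 1347 for ethanol under IMC, and the fit on the libraries of the comparison alone called 691 for IMC in pair-fed mice. The IMC effect differed between diets for 139 genes in the main test, for 80 with no filter, 82 without the trend, 340 with DESeq2, and without library 15 for 72 (edgeR) and 256 (DESeq2). Of the 9 genes 0 were called in that test with limma, edgeR or DESeq2 (0 at an unadjusted p under 0.05 with limma, 1 with DESeq2), and 1914 of all genes were at an unadjusted p under 0.05.

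Leaving out each library in turn, 803 to 1592 genes were called for ethanol without IMC (fewest without library 5 of EtOH), 1364 to 2213 for ethanol under IMC (fewest without library 15 of EtOH + IMC), 537 to 1446 for IMC in pair-fed mice (fewest without library 4 of Pair + IMC, and 543 without library 6) and 54 to 159 for the difference between diets (fewest without library 5 of EtOH). Of the 9 genes, 0 to 1 were called for IMC in pair-fed mice (0 without library 6 of Pair + IMC) and 1 to 3 for IMC in ethanol-fed mice (1 without library 3 or 7 of EtOH or 11 of EtOH + IMC). Without 1 library the log2 fold changes that changed sign ranged, for ethanol under IMC, from -0.23 to 0.133 (Adh4), -0.124 to 0.041 (Aldh3a2) and -0.086 to 0.02 (Cat). For IMC in pair-fed mice they ranged from -0.08 to 0.055 (Adh4), -0.025 to 0.185 (Aldh3a2) and -0.07 to 0.048 (Cat), and in ethanol-fed mice from -0.142 to 0.071 (Adh1), -0.091 to 0.272 (Adh4) and -0.152 to 0.06 (Adh5). For the difference between diets they ranged from -0.064 to 0.15 (Adh1), -0.06 to 0.303 (Adh4), -0.068 to 0.144 (Adh5) and -0.124 to 0.207 (Aldh1a1), and for IMC averaged from -0.061 to 0.12 (Adh4) and -0.1 to 0.011 (Aldh3a2).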
